A study of Mus musculus with 18 samples.

Results

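Transcripts of 10 genes of MHC class I antigen presentation were measured in 18 RNA-seq libraries of polyadenylated RNA from mouse liver. The genes were chosen by name and are the heavy chains H2-K1 and H2-D1, the light chain B2m, the peptide transporter and its loading partner (Tap1, Tap2, Tapbp), the transcriptional activator Nlrc5, and the inducible proteasome subunits Psmb8, Psmb9 and Psmb10. All 10 were found among the 37315 genes of the count table, and all 10 passed the filter on low counts that left 16213 genes. The mice were C57BL/6J, on that background for at least 8 generations, and were 2, 8 or 16 weeks old. The asparaginase groups received L-asparaginase (Elspar), a bacterial enzyme used against leukaemia that removes asparagine from the blood, at 3 IU per g of body weight by daily intraperitoneal injection, with 7 injections at 2 and 16 weeks and 8 at 8 weeks. The PBS groups of the same 3 ages received the same number of injections of phosphate buffered saline, and liver was taken 7.5 h after the last morning injection in every group. Each of the 6 groups has 3 libraries. By the labels the asparaginase groups hold 1 male and 2 females at 2 weeks and 2 males and 1 female at 8 and at 16 weeks, and the PBS groups hold 2 males and 1 female at 2 weeks and 1 male and 2 females at 8 and at 16 weeks. The study asks how the response of the liver to asparaginase differs with age.

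MHC class I molecules show short peptides from the inside of a cell to CD8 T cells. The proteasome cuts proteins into peptides, the TAP transporter carries them into the endoplasmic reticulum, and tapasin (Tapbp) holds an empty heavy chain with B2m beside the transporter until a peptide is bound. Interferon gamma raises the whole set, and Nlrc5 is the activator devoted to class I promoters. Hepatocytes carry little surface class I at rest, while Kupffer cells, endothelium and lymphocytes of the liver carry more, so a liver library is a mixture of these sources. In such bulk RNA, fewer cells of a type and less RNA per cell cannot be told apart.

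Counts per library totalled between 24690871 and 46949361. Asns, the asparagine synthetase gene that rises when amino acids are short, checked the treatment labels: it averaged 25.5 ± 5.72 CPM with asparaginase and 3.70 ± 0.233 CPM with PBS at 2 weeks, 8.78 ± 5.09 against 1.92 ± 1.75 CPM at 8 weeks, and 22.96 ± 8.52 against 0.936 ± 0.502 CPM at 16 weeks (SD, n = 3 each). The sum of 13 hepatocyte genes lay between 79700 and 133000 CPM over all libraries. Asparaginase replicate 3 and PBS replicates 1 and 2 of 2 weeks held transcripts of both sexes, with Xist at 279, 263 and 361 CPM beside Y-linked transcripts at 57.0, 52.4 and 57.3 CPM. Asparaginase replicates 1 and 2 of 8 weeks stood apart by transcripts of squamous epithelium, which summed to 828 and 436 CPM, against 7.46 CPM or less in the PBS libraries of that age, and replicate 1 also held skeletal muscle transcripts at 2380 CPM, against 880 CPM or less in every other library. Pancreatic acinar transcripts summed to 756 to 2120 CPM with asparaginase and 97.5 to 229 CPM with PBS at 2 weeks, and reached 4630 and 718 CPM at 16 weeks. Genes for major urinary proteins (Mup) made up 0.046% to 0.579% of counts at 2 weeks but 5.39% to 47.9% in adults, so that a level per total count and a level on TMM-scaled library sizes differ most between ages and sexes. Levels below are CPM on TMM-scaled library sizes, and a change was called at a Benjamini-Hochberg adjusted p under 0.05, taken over all 16213 genes with edgeR's quasi-likelihood test.

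The regulatory sequences of the heavy chains and of B2m are shown because these 3 genes moved together with age, and that of Tap1 because it fell in males with its neighbour Psmb9. RefSeq (GRCm38.p6) holds a promoter window for 8 of the 10 genes. The printed stretches are the 250 bases before the annotated start, H2-K1 at chr17:34000348-34000597 (minus strand), H2-D1 at chr17:35262844-35263093 (plus), B2m at chr2:122147437-122147686 (plus) and Tap1 at chr17:34187306-34187555 (plus). Capitals mark the letters GGGATTCCC (the core of the kappa-B site of class I genes), GAANNGAAA (the core of the class I interferon consensus), GAAANNGAA (part of an interferon-response element), TGACG (the core of a CRE-like site), CCAAT and TATAAA, each on either strand. The TATAAA of H2-K1 lies 36 bases after its start and so outside the printed stretch.
H2-K1: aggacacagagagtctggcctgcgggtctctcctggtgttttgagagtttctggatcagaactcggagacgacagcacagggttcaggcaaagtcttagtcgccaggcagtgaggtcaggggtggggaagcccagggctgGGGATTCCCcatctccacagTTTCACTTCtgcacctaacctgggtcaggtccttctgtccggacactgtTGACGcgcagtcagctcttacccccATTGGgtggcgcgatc
H2-D1: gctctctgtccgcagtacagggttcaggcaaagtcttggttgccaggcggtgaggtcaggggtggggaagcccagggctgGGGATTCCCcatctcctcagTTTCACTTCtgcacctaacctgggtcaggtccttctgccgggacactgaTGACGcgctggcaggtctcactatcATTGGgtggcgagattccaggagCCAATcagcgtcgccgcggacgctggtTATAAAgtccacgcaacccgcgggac
B2m: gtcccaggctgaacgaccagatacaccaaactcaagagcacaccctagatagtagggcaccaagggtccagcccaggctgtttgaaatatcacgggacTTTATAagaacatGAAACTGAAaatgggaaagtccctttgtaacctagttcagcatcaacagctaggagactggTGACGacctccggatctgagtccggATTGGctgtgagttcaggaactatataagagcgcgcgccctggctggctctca
Tap1: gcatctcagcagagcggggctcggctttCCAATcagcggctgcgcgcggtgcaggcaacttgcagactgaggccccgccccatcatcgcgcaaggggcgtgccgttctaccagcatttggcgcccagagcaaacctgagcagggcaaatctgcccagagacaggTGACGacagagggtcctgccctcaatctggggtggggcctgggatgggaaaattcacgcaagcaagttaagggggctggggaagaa

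The windows of H2-K1 and H2-D1 shared 1 arrangement. From the first base of GGGATTCCC it was 20 bases to the interferon consensus core, 69 to TGACG and 94 to the next CCAAT, read on the minus strand, in both genes, although the annotated start of H2-K1 lies further upstream, so that its kappa-B letters begin at -110 and those of H2-D1 at -170, where -1 is the last base before the start. The letters GGGATTCCC occurred in 116 of all 32851 RefSeq windows of 250 bases before to 50 bases after a start (0.353%), GAANNGAAA in 7.52% and GAAANNGAA in 8.56%. B2m had GAAANNGAA at -139 and TGACG at -78. Among the 8 genes with a window, TGACG stood in 5 (H2-K1, H2-D1, B2m, Tap1 and Psmb9), against 20.8% of all windows, CCAAT in 6, against 37.4%, and TATAAA in 4, against 13.6%. The gamma-activated site letters TTCNNNGAA, found in 8.30% of all windows, stood in that of Psmb8 at -97. Motif matches were sought on both strands, TTCNNNGAA reads the same on both, and the Tap1 and Psmb9 windows overlap since their starts lie 226 bases apart on opposite strands. The TGACG at -86 of Tap1 and at -144 of Psmb9 are the same bases, as are the CCAAT at -222 of Tap1 and at -8 of Psmb9, so each of those tallies holds 1 site under both genes.

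The 10 genes lie on 3 chromosomes of GRCm38. Tapbp (chromosome 17, 33915899 to 33929292), H2-K1 (33996017 to 34000347), Psmb9 (34181987 to 34187764), Tap1 (34187553 to 34197225), Psmb8 (34197721 to 34201454), Tap2 (34203527 to 34216321) and H2-D1 (35262730 to 35267499) are in the MHC on chromosome 17, while B2m is on chromosome 2 (122147686 to 122153083) and Nlrc5 (94434356 to 94527272) and Psmb10 (105935735 to 105938444) are on chromosome 8. All 10 are protein-coding and the values cover their exons. Exons of Tap1 and Psmb9 share 212 bases on opposite strands, and whether counting used strand is not given in the sources used here, so a part of the counts of either may belong to the other. Of the stretches of 50 bases in their annotated transcripts, 9.63% of H2-K1 and 12.8% of H2-D1 also occur in other genes, mainly other class I genes, so the split of counts among class I genes is uncertain to that extent; the share is 2.87% for Tapbp and 0.655% or less for the other members.

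**Figure D1:**
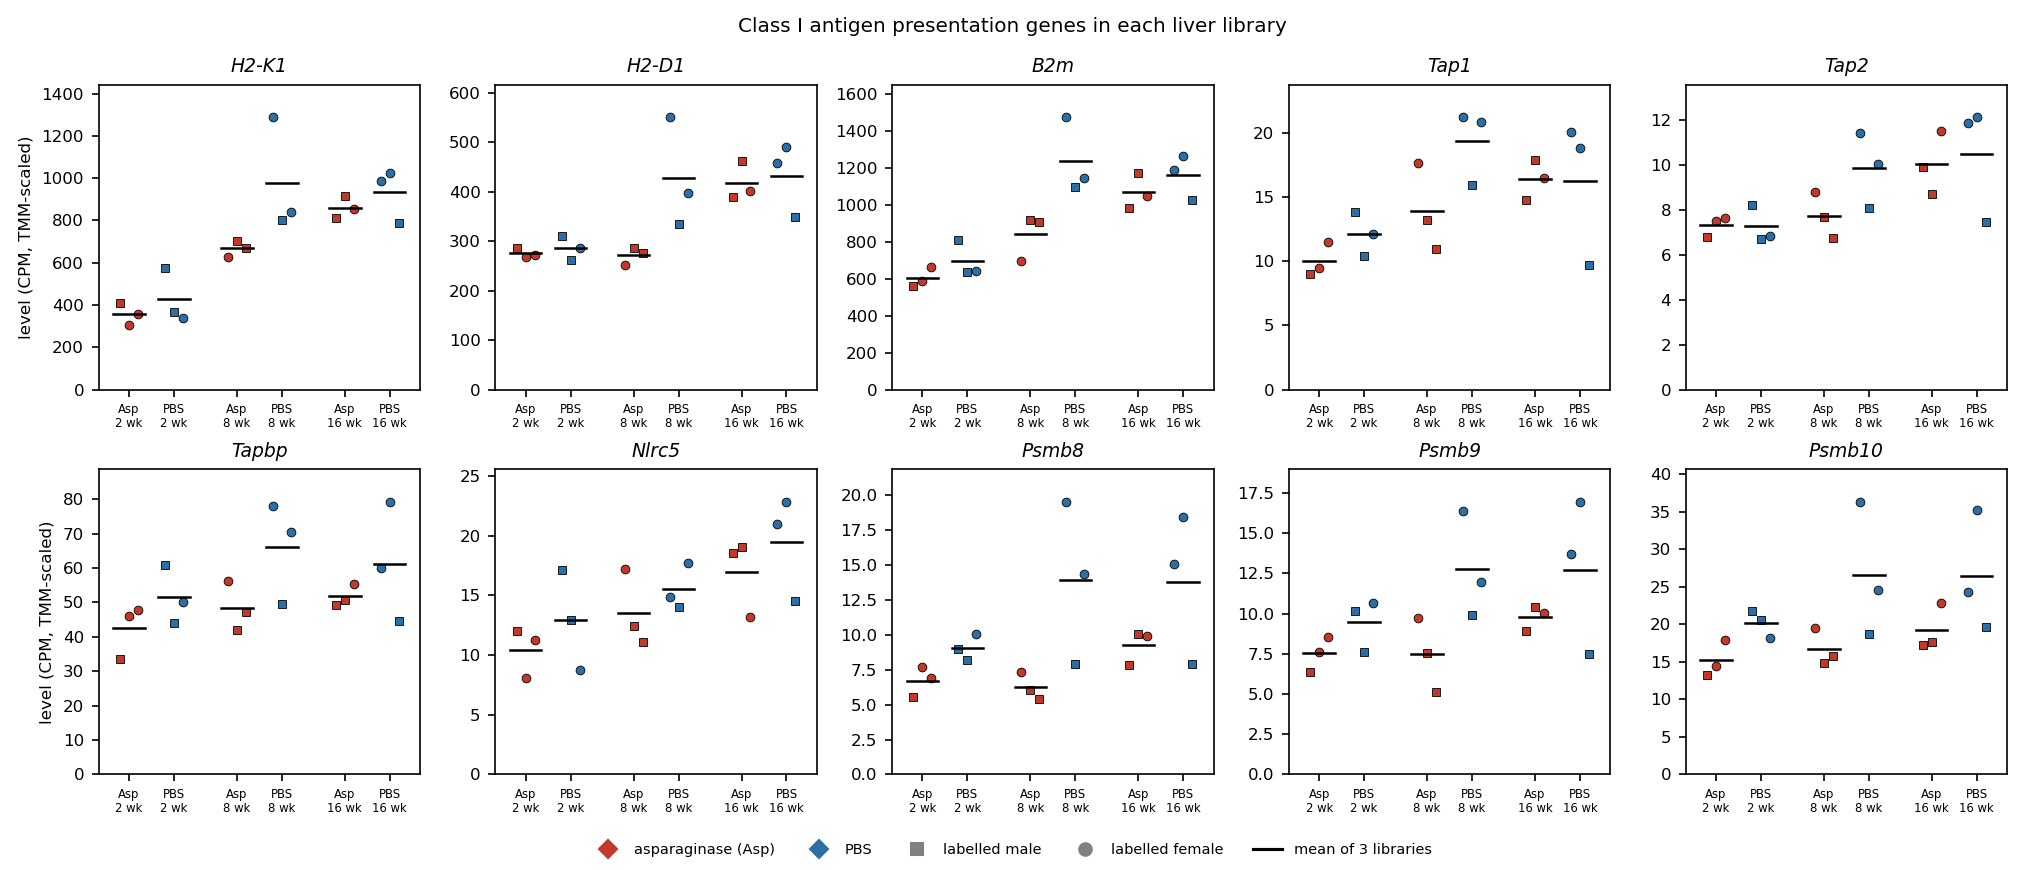
Level of each of the 10 genes in each library (CPM, TMM-scaled, linear axes from 0), asparaginase in red and PBS in blue, squares for labelled males and circles for labelled females, bars for the mean of 3 libraries. On this scale H2-K1, H2-D1 and B2m lie higher in the PBS libraries of 8 and 16 weeks than in those of 2 weeks. At 8 weeks their asparaginase libraries lie below every PBS library. With total counts the PBS means of H2-D1 would be 378, 371 and 363 CPM at 2, 8 and 16 weeks. The 8-week groups of these 3 genes would overlap on that scale.

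Per kilobase of exon, the light chain and the heavy chains far exceeded the machinery that serves them. The median over the 18 libraries was 1105 CPM per kb for B2m, 253.7 for H2-K1 and 125.1 for H2-D1. Tapbp followed at 13.8 and Psmb10 at 11.2 CPM per kb, and these neighbours overlapped in range (9.26 to 21.8 and 7.79 to 21.3 CPM per kb). Psmb9, Tap1, Psmb8, Tap2 and Nlrc5 had medians of 2.68, 2.61, 2.38, 2.16 and 1.68 CPM per kb, with ranges that overlapped throughout. The constitutive subunits that the inducible ones replace stood higher, at medians of 39.0 for Psmb5, 33.6 for Psmb6 and 23.7 CPM per kb for Psmb7. Counts behind these levels ran from 182 in the lowest library of Psmb9 to 46169 in the highest of B2m.

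The genes of the class I molecule itself rose in adult against 2-week PBS livers with TMM scaling. H2-K1 rose by 1.24 ± 0.208 (log2 fold change ± SE) at 8 against 2 weeks and by 1.17 ± 0.207 at 16 against 2 weeks, B2m by 0.85 ± 0.177 and 0.72 ± 0.175, and H2-D1 by 0.55 ± 0.176 and 0.56 ± 0.175. Of the 10 genes 5 rose at 8 weeks (H2-K1, H2-D1, B2m, Tap1, Tap2), and 5 rose at 16 weeks (H2-K1, H2-D1, B2m, Tap2, Nlrc5), and none fell. The background was high: 31.7% of all genes passed at 8 against 2 weeks (14.8% upward) and 27.8% at 16 against 2 weeks (13.2% upward). The median log2 change of the 10 genes was 0.37 at 8 weeks and 0.40 at 16 weeks, beside -0.01 for all genes in both comparisons. With TMM all 10 lay above 0 at both ages, whereas with total counts 8 lay below 0 at 8 weeks and 9 at 16 weeks, among them the called genes H2-D1 and Tap2 at both ages, Tap1 at 8 weeks, and B2m and Nlrc5 at 16 weeks.

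H2-K1, the more abundant heavy chain transcript, read 576, 367 and 339 CPM in the PBS libraries of 2 weeks, 1288, 802 and 838 CPM at 8 weeks and 988, 1025 and 787 CPM at 16 weeks. B2m, the light chain of all class I molecules, read 808, 637 and 639 CPM at 2 weeks, 1472, 1097 and 1141 CPM at 8 weeks and 1188, 1265 and 1024 CPM at 16 weeks. Every adult PBS library exceeded every 2-week PBS library in both genes. H2-D1, the other classical heavy chain, read 310.3, 262 and 286 CPM at 2 weeks, 551, 335 and 398 CPM at 8 weeks and 457, 491 and 349.5 CPM at 16 weeks, again with no overlap between adult and 2-week libraries. Tap1 was also above every 2-week library at 8 weeks, which makes 4 genes without overlap at 8 weeks, where 16.4% of all genes lay wholly higher, and 3 at 16 weeks, where 19.5% did. The adjusted p of H2-K1 was 0.000945 at 8 weeks and 0.00132 at 16 weeks, of B2m 0.00343 and 0.00911, and of H2-D1 0.0314 and 0.0302.

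The peptide transporter genes and the activator had smaller log2 changes than H2-K1 at both ages. Tap1 at 8 weeks and Nlrc5 at 16 weeks were not below H2-D1. Differences between genes were not tested. Tap1, which forms the transporter with Tap2, rose by 0.56 ± 0.185 at 8 weeks (adjusted p = 0.0351) and differed by 0.27 ± 0.189 at 16 weeks (adjusted p = 0.312). Tap2 rose by 0.37 ± 0.122 (adjusted p = 0.0362) and by 0.41 ± 0.122 (adjusted p = 0.0237). Nlrc5, which drives class I promoters, differed by 0.33 ± 0.215 at 8 weeks (adjusted p = 0.265) and rose by 0.71 ± 0.219 at 16 weeks (adjusted p = 0.0298). Tapbp (0.21 and 0.11), Psmb8 (0.38 and 0.39), Psmb9 (0.27 and 0.24) and Psmb10 (0.26 and 0.27) did not pass at either age, with adjusted p between 0.19 and 0.652. No gene of the 10 passed between 16 and 8 weeks of age in PBS mice, where the background was 0.413%. None had an unadjusted p under 0.05, beside 2493 of all 16213 genes, and DESeq2 and limma-voom called 0 of the 10 as well.

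These directions were kept, with every call, under RLE size factors and under TMM without the Mup genes. They were not all kept when total counts replaced TMM scaling. With total counts in its place the median of all genes moved to -0.72 at 8 weeks and -0.80 at 16 weeks; H2-K1 was then at 0.52 and 0.39 and B2m at 0.13 and -0.07, and H2-D1 turned to -0.18 and -0.23, Tap2 to -0.35 and -0.38, Tap1 to -0.15 at 8 weeks and Nlrc5 to -0.08 at 16 weeks, all above that median. On that scale H2-K1 passed as higher at 8 weeks (adjusted p = 0.0191) and not at 16 weeks (0.0632), Tap2, Tapbp, Psmb9 and Psmb10 passed as lower at both ages, and Tap1 passed as lower at 16 weeks. The share of all genes that passed as lower on that scale is not given here, and the calls as lower include the common shift. All of these rises other than that of H2-K1 also rested on single libraries. Of the 5 genes at 8 weeks, 1 (H2-K1) remained called without PBS replicate 3 of 2 weeks, 2 (H2-K1, B2m) without PBS replicate 2 of 2 weeks or PBS replicate 1 of 8 weeks, 3 (with H2-D1) without PBS replicate 2 or 3 of 8 weeks or asparaginase replicate 2 of 2 weeks, and 4 (all but Tap2) without asparaginase replicate 1 of 8 weeks. Of the 5 at 16 weeks, 1 (H2-K1) remained without PBS replicate 3 of 2 weeks, and 2 (H2-K1, B2m) without PBS replicate 2 of 2 weeks or PBS replicate 1 or 2 of 16 weeks, while 7 were called without PBS replicate 3 of 16 weeks (with Tap1 and Psmb8). Leaving out the 2 libraries with squamous transcripts left 1 asparaginase library at 8 weeks. Leaving out the 3 libraries that hold both sexes left 1 PBS library at 2 weeks, the reference of these comparisons. Calls of those fits are therefore not given.

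Genes around the pathway gave mixed counts over the same ages. Of all 16213 genes 2394 rose and 2743 fell at 8 against 2 weeks, and 2147 rose and 2354 fell at 16 against 2 weeks. Of 18 other class I heavy chain genes, 11 rose and 0 fell at 8 against 2 weeks (median log2 0.56), among them Cd1d2 (1.00 ± 0.17) and Cd1d1 (1.07 ± 0.193), which present lipids, Hfe (0.57 ± 0.112), which regulates iron uptake, and H2-Q10 (1.22 ± 0.25), a secreted class I protein of liver. At 16 weeks 7 of the 18 rose and 1 fell (median 0.46). Of 10 MHC class II genes, which serve presentation to CD4 T cells, 7 rose at 8 weeks and 6 at 16 weeks, with Cd74 at 1.90 ± 0.214 and 1.83 ± 0.214. Of 21 genes of the regulatory particle of the proteasome 19 rose at 8 weeks and 8 at 16 weeks, and of 14 constitutive core subunits 11 and 2. Of 25 regulators of class I transcription 5 rose and 5 fell at 8 weeks, with the interferon gamma receptor subunit Ifngr1 at -1.02 ± 0.134. The lists were fitted with TMM, and total counts lower all genes by about the shift given above.

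Few leukocyte marker genes passed upward at 8 weeks, although the sum of common leukocyte genes was higher at 8 and at 16 weeks than at 2 weeks. Of 12 common leukocyte genes 1 rose at 8 weeks (Lcp1, an actin bundling protein, 1.28 ± 0.161) and the median was -0.28, and of 21 T and NK cell genes 7 fell, among them Gzma (-2.70 ± 0.481). The 12 leukocyte genes summed to 163 to 197 CPM in PBS livers of 8 weeks and 131 to 153 CPM in those of 2 weeks, and the 22 T and NK cell genes to 6.89 to 15.4 CPM and 10.8 to 21.9 CPM, with no gene of either list at 0 in a whole group. In PBS livers of 16 weeks the sums were 163 to 198 CPM for leukocyte genes and 8.05 to 15.9 CPM for T and NK cell genes. Of 12 sinusoidal endothelial genes 8 fell at 8 weeks and 5 at 16 weeks, of 10 stellate cell genes 7 and 5, of 7 neutrophil genes 6 and 6, and of 12 erythroid and haematopoietic genes 5 and 3, with 1 of the last list higher at each age. Among all 16213 genes 2743 fell at 8 weeks and 2354 at 16 weeks. The endothelial genes summed to 425 to 524 CPM in PBS livers of 2 weeks, 339 to 433 CPM at 8 weeks and 387 to 409 CPM at 16 weeks. The Kupffer cell and macrophage sum was 519 to 885 CPM at 8 weeks, 634 to 891 CPM at 16 weeks and 628 to 840 CPM at 2 weeks. The part of changing cell numbers in the rise of H2-K1, H2-D1 and B2m was not tested.

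**Figure D2:**
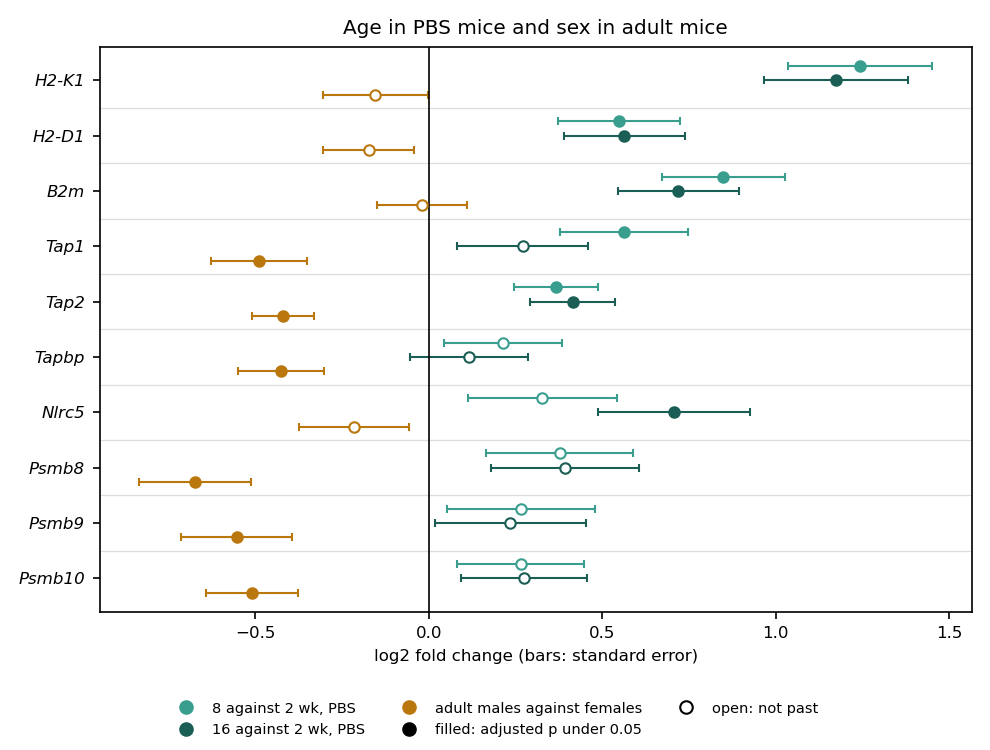
Log2 fold change with its standard error for each gene, for 8 and 16 against 2 weeks in PBS mice with TMM scaling (greens) and for adult males against females (brown); filled points passed an adjusted p of 0.05. H2-K1, B2m and H2-D1 passed with age and did not pass between the sexes. With total counts the estimates of H2-D1 at both ages and of B2m at 16 weeks turned below 0. Psmb8, Psmb9, Psmb10 and Tapbp were lower in males and did not pass with age.

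With asparaginase, none of the 10 genes passed at 2, 8 or 16 weeks in edgeR's test, where 0.432%, 0.364% and 0.234% of all genes did. At 8 weeks all 10 lay below 0, with a median log2 change of -0.48, beside 0.01 for all genes. An unadjusted p under 0.05 was reached there by 6 of the 10 and by 2989 of all 16213 genes. The medians were -0.26 at 2 weeks and -0.08 at 16 weeks, beside -0.01 and 0.0 for all genes. At these ages 2 and 0 of the 10 had an unadjusted p under 0.05, beside 2043 and 1842 of all 16213 genes. DESeq2 called 0, 3 and 0 of the 10 at 2, 8 and 16 weeks (H2-D1, B2m and Psmb8 at 8 weeks), and limma-voom 0 at each age. The shares of all genes called by DESeq2 are not given here, so its 3 genes have no background to be read against. Averaged over the 3 ages, Psmb8, the inducible chymotrypsin-like subunit of the proteasome, fell by 0.56 ± 0.13 on the log2 scale (adjusted p = 0.0286); it is 1 gene of 10 in a comparison where 5.41% of all genes passed and 2.86% fell.

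**Figure D3:**
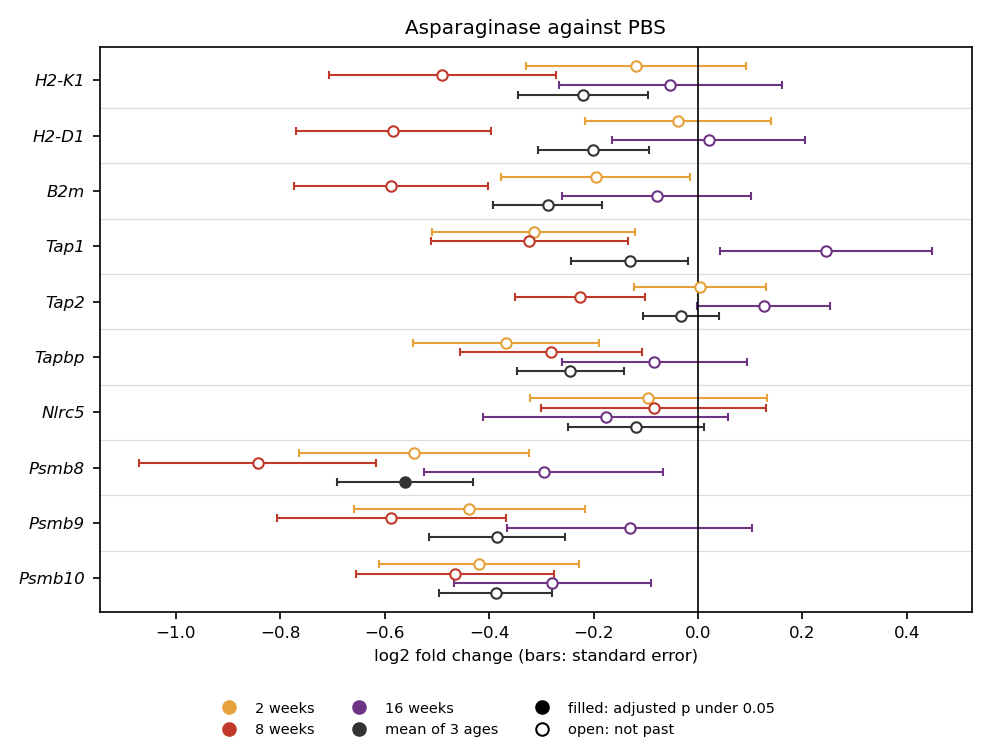
Log2 fold change of asparaginase against PBS with its standard error for each gene at 2, 8 and 16 weeks and as the mean of the 3 ages; filled points passed an adjusted p of 0.05. The mean effect of Psmb8 (-0.56) is the filled point, and the 8-week values of H2-K1, H2-D1, B2m and the 3 proteasome subunits lie between -0.84 and -0.47.

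Psmb8 read 5.55, 7.67 and 6.91 CPM with asparaginase and 9.01, 8.19 and 10.0 CPM with PBS at 2 weeks. At 8 weeks it read 7.36, 6.04 and 5.42 CPM with asparaginase and 19.5, 7.92 and 14.3 CPM with PBS. At 16 weeks it read 7.84, 10.1 and 9.90 CPM with asparaginase and 15.0, 18.4 and 7.88 CPM with PBS. On the TMM scale the groups did not overlap at 2 and 8 weeks and overlapped at 16 weeks, where the PBS male stood among the asparaginase libraries. With total counts they overlapped at 8 weeks as well. The sexes are split unevenly between the groups, and within them at 8 weeks the asparaginase female read 7.36 CPM against 19.5 and 14.3 CPM in the PBS females, and the asparaginase males 6.04 and 5.42 CPM against 7.92 CPM in the PBS male. At 16 weeks the asparaginase female read 9.90 CPM against 15.0 and 18.4 CPM in the PBS females, and the asparaginase males 7.84 and 10.1 CPM against 7.88 CPM in the PBS male. With the sex term the log2 changes were -0.54 ± 0.22 at 2 weeks (adjusted p = 0.315), -0.84 ± 0.227 at 8 weeks (0.0871) and -0.30 ± 0.229 at 16 weeks (0.678).

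The averaged fall of Psmb8 depended on which libraries entered. It was -0.53 without asparaginase replicate 1 of 2 weeks (adjusted p = 0.133), -0.43 without asparaginase replicate 1 of 8 weeks (0.125), -0.56 without asparaginase replicate 1 of 16 weeks (0.0539) and -0.40 without asparaginase replicate 3 of 16 weeks (0.136). Leaving out the 2 libraries with squamous transcripts gave -0.46, with 1 asparaginase library left at 8 weeks. Leaving out the 3 libraries with transcripts of both sexes gave -0.58, with 1 PBS library left at 2 weeks. A further member was called beside Psmb8, for 2 in all, without PBS replicate 3 or asparaginase replicate 3 of 2 weeks, or without PBS replicate 1 or 3 of 8 weeks (Psmb10 in each), or without PBS replicate 3 of 16 weeks (Psmb9). With total counts in place of TMM the median of all genes moved to 0.22 and Psmb8 stood at -0.35 (adjusted p = 0.0431).

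The other inducible subunits read lower with asparaginase in the same libraries without passing. Psmb9, which replaces the caspase-like subunit Psmb6, read 6.39, 7.62 and 8.55 CPM with asparaginase against 10.2, 7.59 and 10.7 CPM with PBS at 2 weeks, 9.74, 7.58 and 5.14 CPM against 16.4, 9.90 and 12.0 CPM at 8 weeks, and 8.90, 10.4 and 10.1 CPM against 13.7, 16.9 and 7.49 CPM at 16 weeks. Psmb10, which replaces the trypsin-like subunit Psmb7, read 13.3, 14.5 and 18.0 CPM with asparaginase against 21.8, 20.6 and 18.2 CPM with PBS at 2 weeks, 19.5, 14.8 and 15.8 CPM against 36.3, 18.6 and 24.6 CPM at 8 weeks, and 17.2, 17.7 and 22.9 CPM against 24.3, 35.2 and 19.7 CPM at 16 weeks. With TMM Psmb9 did not overlap at 8 weeks and Psmb10 did not overlap at 2 weeks. With total counts Psmb9 overlapped at 8 weeks. Their mean effects were -0.39 ± 0.13 (adjusted p = 0.104) and -0.39 ± 0.109 (adjusted p = 0.0589).

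Set against the constitutive subunit that each replaces, the inducible subunits had lower group means with asparaginase, but the groups hold unequal numbers of each sex (in adults 2 males and 1 female with asparaginase, 1 male and 2 females with PBS) and overlapped in most cases. The ratio of Psmb8 to Psmb5 counts averaged 0.229 ± 0.0609 with asparaginase and 0.328 ± 0.0675 with PBS at 2 weeks, 0.159 ± 0.0528 and 0.324 ± 0.13 at 8 weeks, and 0.239 ± 0.0584 and 0.4 ± 0.202 at 16 weeks (SD, n = 3 each). The ratio of Psmb9 to Psmb6 averaged 0.124 with asparaginase and 0.155 with PBS at 2 weeks, 0.128 with asparaginase and 0.179 with PBS at 8 weeks, and 0.153 with asparaginase and 0.206 with PBS at 16 weeks. The ratio of Psmb10 to Psmb7 averaged 0.223 with asparaginase and 0.275 with PBS at 2 weeks, 0.198 with asparaginase and 0.26 with PBS at 8 weeks, and 0.248 with asparaginase and 0.326 with PBS at 16 weeks. A ratio within a library does not depend on library scaling. Within a sex the means did not carry over everywhere: at 16 weeks the asparaginase males had Psmb8 to Psmb5 ratios of 0.181 and 0.237 against 0.177 in the PBS male, and Psmb9 to Psmb6 ratios of 0.134 and 0.156 against 0.11. The asparaginase female of 8 weeks had a Psmb9 to Psmb6 ratio of 0.19 against 0.197 and 0.196 in the PBS females. For Psmb8 to Psmb5 the asparaginase males of 8 weeks read 0.139 and 0.119 against 0.176 in the PBS male, the asparaginase female of 8 weeks 0.218 against 0.415 and 0.382 in the PBS females, and the asparaginase female of 16 weeks 0.298 against 0.452 and 0.571. Of these 9 pairs of groups 1 did not overlap, Psmb10 to Psmb7 at 2 weeks (0.192 to 0.254 with asparaginase, 0.264 to 0.294 with PBS). Psmb5 itself averaged 30.0 ± 3.91 CPM with asparaginase and 28.5 ± 6.34 CPM with PBS at 2 weeks, 40.9 ± 6.39 and 43.2 ± 5.03 CPM at 8 weeks, and 39.6 ± 5.57 and 36.7 ± 6.73 CPM at 16 weeks, less than its spread apart at each age.

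**Figure D4:**
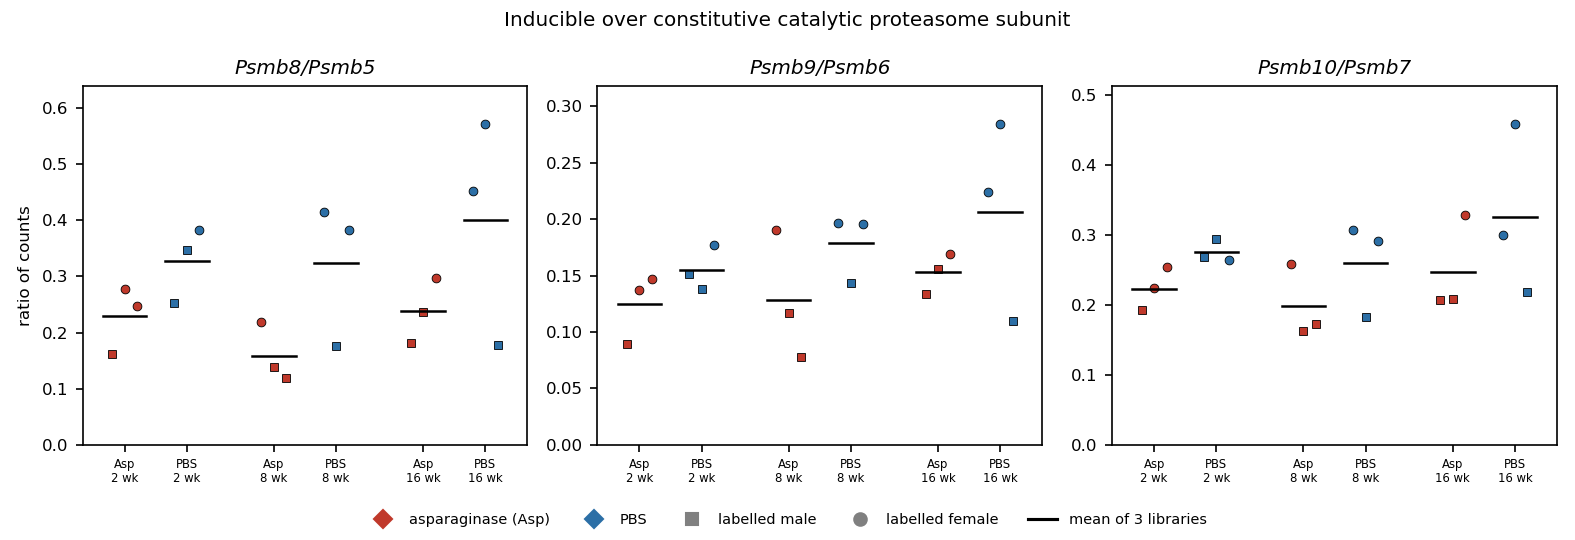
Ratio of counts of each inducible catalytic subunit to its constitutive partner in each library, asparaginase in red and PBS in blue, squares for labelled males and circles for labelled females, bars for means of 3. The group means, which set unequal numbers of males and females against each other, are lower with asparaginase (for Psmb8 to Psmb5 0.159 against 0.324 at 8 weeks), while at 16 weeks both asparaginase males lie above the PBS male for Psmb8 to Psmb5 and for Psmb9 to Psmb6.

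The heavy chains and the light chain did not pass with asparaginase at any age, and their groups were separate at 8 weeks on the TMM scale. H2-K1 read 629, 704 and 671 CPM with asparaginase against 1288, 802 and 838 CPM with PBS at that age (log2 -0.49 ± 0.217, adjusted p = 0.254). H2-D1 read 251, 287 and 276.5 CPM against 551, 335 and 398 CPM (-0.58 ± 0.187, 0.136), and B2m 696, 917 and 903 CPM against 1472, 1097 and 1141 CPM (-0.59 ± 0.186, 0.13). With TMM none of the 3 overlapped. Together with Psmb8 and Psmb9 this makes 5 of the 10 genes wholly lower at 8 weeks, where 8.57% of all genes were. On the same scale 2 were wholly lower at 2 weeks (Psmb8 and Psmb10, background 8.64%), and none was at 16 weeks (9.63%). With total counts all 5 overlapped at 8 weeks. On that scale H2-K1 averaged 655.6 ± 100.4 CPM with asparaginase and 839.3 ± 285.9 CPM with PBS. H2-D1 averaged 266.1 ± 37.26 and 370.6 ± 128.6 CPM, and B2m 813.4 ± 65.4 and 1062 ± 279.3 CPM (SD).

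At 2 weeks H2-K1 read 409.8, 304 and 357 CPM with asparaginase against 576, 367 and 339 CPM with PBS, H2-D1 287, 269 and 273 CPM against 310.3, 262 and 286 CPM, and B2m 562, 589.6 and 662 CPM against 808, 637 and 639 CPM. At 16 weeks H2-K1 read 812, 913 and 853 CPM against 988, 1025 and 787 CPM, H2-D1 388, 461.5 and 401 CPM against 457, 491 and 349.5 CPM, and B2m 983, 1172 and 1044 CPM against 1188, 1265 and 1024 CPM. The groups overlapped in all 3 genes at both ages. The difference of the effect between ages did not pass for any of the 10 genes: adjusted p was 0.539 or higher for 8 minus 2 weeks, 0.824 or higher for 16 minus 2 weeks and 0.507 or higher for 16 minus 8 weeks. The shares of all genes passing were 0%, 0% and 0.0123%. At an unadjusted p under 0.05 there were 0, 0 and 1 of the 10 (H2-D1 at 16 minus 8 weeks, 0.60 ± 0.263). Of all 16213 genes 1509, 1005 and 1517 were under that value. DESeq2 and limma-voom called 0 of the 10 in each. With total counts only, 6 of the 10 genes lay below 0 at 8 weeks in place of 10 and 2 at 16 weeks in place of 7, beside medians of 0.37 and 0.25 for all genes, and 6 in the mean effect in place of 10.

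None of the transporter genes, tapasin and Nlrc5 passed with asparaginase. At 8 weeks Tap1 read 17.7, 13.2 and 10.9 CPM against 21.2, 15.9 and 20.8 CPM with PBS, Tap2 8.81, 7.66 and 6.75 CPM against 11.4, 8.08 and 10.1 CPM, and Tapbp 56.1, 41.9 and 47.1 CPM against 78.0, 49.6 and 70.5 CPM. The ranges overlapped in each. Nlrc5 read 17.2, 12.4 and 11.1 CPM with asparaginase against 14.9, 14.0 and 17.7 CPM with PBS. Mean effects over the ages were -0.13 ± 0.112 for Tap1 (adjusted p = 0.528), -0.03 ± 0.0726 for Tap2 (0.84), -0.24 ± 0.102 for Tapbp (0.179) and -0.12 ± 0.13 for Nlrc5 (0.632), beside -0.22 ± 0.124 for H2-K1 (0.316), -0.20 ± 0.106 for H2-D1 (0.282) and -0.29 ± 0.105 for B2m (0.131). At 2 weeks Tapbp read 33.6, 46.1 and 47.8 CPM with asparaginase against 60.9, 44.1 and 50.1 CPM with PBS (log2 -0.37 ± 0.178, adjusted p = 0.427), and Tap1 9.04, 9.45 and 11.5 CPM against 13.8, 10.4 and 12.1 CPM (-0.31 ± 0.194, 0.583). Both overlapped.

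Several genes induced by interferon gamma fell in the mean effect of asparaginase; whether they differ from the class I genes was not tested. In the mean effect 10 of 17 such genes fell, 7 did not pass and none rose (median log2 -0.61, beside 0.0 for all genes), among them the immunity-related GTPases Irgm1 (-0.74 ± 0.102), Igtp (-0.90 ± 0.129) and Tgtp1 (-0.93 ± 0.164). At 8 weeks 4 of the 17 fell, as did 28 of all 16213 genes, and at 2 and 16 weeks 0 of the 17 did in edgeR's test. At 2 and 16 weeks 7 and 5 of the 17 had an unadjusted p under 0.05, beside 2043 and 1842 of all genes. The counts are with TMM; total counts raise the median of all genes by 0.22 in the mean effect and 0.37 at 8 weeks. Of 25 regulators of class I transcription 3 fell in the mean effect, among them Irf9 (-0.35 ± 0.0862, adjusted p = 0.0366), a DNA-binding factor of the interferon response. Of 22 antiviral genes induced by type I interferon 5 fell (median -0.52), among them Irf7 and Isg15.

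Loading chaperones and the constitutive proteasome also held genes that fell in the mean effect, in which 2.86% of all genes fell and 5.41% passed in either direction. Of 15 peptide loading and trimming partners 3 fell, the thiol oxidoreductase Pdia3 (ERp57) by 0.57 ± 0.09, calreticulin (Calr) by 0.59 ± 0.122 and Hspa5 by 0.74 ± 0.163; all 3 are general chaperones of the endoplasmic reticulum. Of 14 core subunits 3 fell (Psmb2, Psma1 and Psma2, by 0.42, 0.30 and 0.28), and of 21 regulatory particle genes 3 fell and 1 rose (Psmd9, 0.33). Of 10 activator and assembly genes 2 fell, Pomp, which assembles the proteasome, by 0.37 ± 0.0795 and Psme1 by 0.34 ± 0.0884. Of 18 other class I genes 1 fell (Cd1d2, -0.38 ± 0.1), and of 10 MHC class II genes 1 (H2-Eb1, -0.59 ± 0.148), counts of a single gene each.

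The sum of common leukocyte genes was wholly lower with asparaginase at 8 weeks, while the sums of the other immune cell lists overlapped. These sums set 2 males and 1 female with asparaginase against 1 male and 2 females with PBS. The 12 common leukocyte genes summed to 126 to 140 CPM with asparaginase and 163 to 197 CPM with PBS at that age, the 20 Kupffer cell and macrophage genes to 431 to 526 and 519 to 885 CPM, the 22 T and NK cell genes to 4.21 to 7.20 and 6.89 to 15.4 CPM, and the 11 B and plasma cell genes to 5.62 to 12.7 and 7.95 to 31.6 CPM. None of these 4 lists had a gene past the threshold at 8 weeks. At an unadjusted p under 0.05 there were 7 of 12, 15 of 20, 7 of 21 and 3 of 10 tested genes, beside 2989 of all 16213. Erythroid and haematopoietic genes summed to 286 to 336 CPM with asparaginase and 554 to 586 CPM with PBS at 8 weeks, with no overlap. At 16 weeks the leukocyte sum was 164 to 212 CPM with asparaginase and 163 to 198 CPM with PBS. No gene of these lists was at 0 in a whole group. The 10 dendritic cell genes summed to 8.12 to 11.3 CPM with asparaginase and 7.39 to 12.1 CPM with PBS at 8 weeks. The 10 neutrophil genes summed to 0.876 to 2.01 and 0.894 to 3.32 CPM. In these lists 0 of 10 and 1 of 7 tested genes had an unadjusted p under 0.05. The part of leukocytes, erythroid cells and muscle or squamous tissue in the 8-week values of the class I genes was not tested.

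Adult males and females differed in the processing genes. This comparison was added after the values had been seen, and it averages 8 and 16 weeks over both treatments. At each of these ages 2 males and 1 female received asparaginase, and 1 male and 2 females received PBS. The model has a term for each group, while the ranges and sums by sex given below do not allow for treatment. In males 6 of the 10 genes were lower and none higher, Psmb8 at -0.67 ± 0.161 (adjusted p = 0.0191), Psmb9 at -0.55 ± 0.16 (0.0398), Psmb10 at -0.51 ± 0.133 (0.0268), Tap1 at -0.49 ± 0.138 (0.0367), Tapbp at -0.43 ± 0.124 (0.0417) and Tap2 at -0.42 ± 0.0888 (0.011) on the log2 scale. The background was 12.9% of all genes, 8.02% in this direction, and the medians were -0.42 for the 10 genes and -0.02 for all. The heavy chains, B2m and Nlrc5 did not pass, at -0.15 ± 0.152 for H2-K1, -0.17 ± 0.131 for H2-D1, -0.02 ± 0.13 for B2m and -0.22 ± 0.159 for Nlrc5. DESeq2 and limma-voom called 6 genes each, and their shares of all genes called are not given here.

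Tapbp separated the sexes in all 12 adult libraries, with 6 males between 41.9 and 50.8 CPM (median 48.2) and 6 females between 55.2 and 79.2 CPM (median 65.3). It was the gene of the 10 in which every male lay below every female, as 2.22% of all genes did. Tap2 read 6.75 to 9.92 CPM in males (median 7.87) and 8.81 to 12.1 CPM in females (median 11.4), and Psmb10 14.8 to 19.7 CPM (17.4) and 19.5 to 36.3 CPM (24.4). Both separated within each age and overlapped slightly over the ages together. Tap1 read 9.70 to 17.9 CPM in males (14.0) and 16.5 to 21.2 CPM in females (19.5), Psmb8 5.42 to 10.1 CPM (7.86) and 7.36 to 19.5 CPM (14.7), and Psmb9 5.14 to 10.4 CPM (8.24) and 9.74 to 16.9 CPM (12.8). For Psmb8 and Psmb9 the overlap came from the asparaginase females, which read 7.36 and 9.90 CPM and 9.74 and 10.1 CPM.

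The call of each of these 6 genes rested on few libraries. None was called without PBS replicate 3 of 16 weeks, 1 (Tap2) without PBS replicate 2 of 8 weeks, and 1 (Psmb8) without asparaginase replicate 1 of 8 weeks; the libraries of the first 2 cases are the only PBS males of their ages. Without asparaginase replicate 2 of 2 weeks, PBS replicate 2 of 16 weeks, asparaginase replicate 3 of 8 weeks or asparaginase replicate 1 of 16 weeks 3 were called each time (Tap2, Psmb8 and Psmb10). Leaving out any of 8 further libraries gave 4 or 5 genes, Psmb8 and Tap2 among them each time: PBS replicates 1 of 8 and of 16 weeks, PBS replicate 3 and asparaginase replicates 1 and 3 of 2 weeks, asparaginase replicate 2 of 8 weeks, and asparaginase replicates 2 and 3 of 16 weeks. Calls without the 2 libraries with squamous transcripts are not given, since 1 asparaginase library was left at 8 weeks. The same holds without the 3 libraries with transcripts of both sexes, where 1 PBS library was left at 2 weeks. With total counts in place of TMM the median of all genes moved to -0.53 and all 10 genes passed as lower in males. The share of all genes that passed on that scale is not given here, and the count of 10 includes this common shift.

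Genes induced by interferon and lymphocyte markers were lower in males beside the processing genes, in a comparison where 8.02% of all genes were lower. Of 22 antiviral genes induced by type I interferon 15 were lower (median -0.85), and of 17 genes induced by interferon gamma 9 (median -0.72). Of 10 MHC class II genes 8 were lower (median -0.79), and 3 of 25 regulators, among them Irf8 (-0.58 ± 0.0797) and Ifngr1 (-0.33 ± 0.0984). Of 21 T and NK cell genes 8 were lower, with Cd8a at -2.60 ± 0.349, of 10 B cell genes 6, of 12 leukocyte genes 6 and of 20 Kupffer cell and macrophage genes 4. The T and NK cell genes summed to 4.21 to 8.47 CPM in males and 7.20 to 16.5 CPM in females, the leukocyte genes to 126 to 212 and 137 to 198 CPM, and the B and plasma cell genes to 5.20 to 40.9 and 12.7 to 134 CPM, with no gene at 0 in either sex. Of 10 stellate cell genes 6 were lower, and their sum was 283 to 368 CPM in males and 378 to 530 CPM in females. The 13 hepatocyte genes summed to 79700 to 98100 CPM in males and 100000 to 126000 CPM in females, and neither sum overlapped. More of the males than of the females had received asparaginase, which these sums do not allow for. The part of these cells in the sex difference was not tested.

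The constitutive proteasome did not share the direction of the inducible subunits. Of 14 core subunits none passed between the sexes, and 2 had an unadjusted p under 0.05, beside 4896 of all 16213 genes. All 14 lay above 0 in males, with a median of 0.16, on TMM scaling. Of 21 regulatory particle genes 4 were higher in males, among them Psmd2 (0.38 ± 0.0625) and Psmd1 (0.44 ± 0.0752), as were 789 of all 16213 genes. Psmb5 read 42.4 to 45.7 CPM in males (median 43.9) and 32.3 to 47.1 CPM in females (median 33.5), a difference of 0.33 ± 0.103 that did not pass (adjusted p = 0.0558). The Psmb8 to Psmb5 ratio was 0.176 and 0.177 in the PBS males of 8 and 16 weeks, and 0.382 to 0.571 in the 4 PBS females of those ages. In adults given asparaginase it was 0.119 to 0.237 in males and 0.218 and 0.298 in females, so the sexes overlapped over both treatments.

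Across the 18 libraries the 10 genes varied together to different degrees, given here as Pearson correlations of log2(CPM + 0.5) that describe libraries sharing groups, sexes and ages. H2-K1 and B2m correlated at 0.956 and Psmb8 and Psmb9 at 0.938. The lowest value was 0.541, for Nlrc5 and Psmb8, and H2-K1 and Psmb8 stood at 0.58. Roles did not order the values: Tapbp and Psmb10 correlated at 0.907, Tapbp and Psmb8 at 0.883 and H2-D1 and Psmb8 at 0.824, beside 0.861 for Psmb9 and Psmb10 and 0.832 for H2-K1 and H2-D1. The genes outside the set most like the mean of the 10 were H2-T22 (0.973) and H2-T10 (0.97), which are nonclassical class I genes, then Ctsc (0.939), a lysosomal protease, Ly6e (0.939), H2-Q6 (0.933), H2-Q5 (0.92), Tnfaip8l3 (0.919) and Irf7 (0.918). After group means were taken out H2-T22 (0.973) and H2-T10 (0.963) again came first, followed by Dact2 (0.958), Ly6a (0.916), Fgl1 (0.912), Ccdc85b (0.911), Naglu (0.91) and Npc2 (0.904). H2-T22 ranged from 51.2 to 133 CPM and H2-T10 from 5.55 to 15.9 CPM over the libraries.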

How the data were processed

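Polyadenylated liver RNA was sequenced in 18 libraries, 3 in each of 6 groups of treatment and age taken from the labels. The authors deposited 1 table of whole-number counts per gene and library, with no scaling, for 37315 genes; no pair of columns was identical (0 pairs). TopHat2 2.0.9, TopHat and DESeq2 are named in the submitters' processing notes with the builds GRCm38 and mm10 and no roles; which counter, annotation and strand setting were used is not stated in the sources at hand. Symbols and positions came from GENCODE M21 by gene identifier (35449 matched).

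Genes were kept by filterByExpr (minimum count 10, minimum total 15), which left 16213. All 18 libraries entered a quasi-likelihood model (edgeR 4.0.16, R 4.3.3) on TMM-scaled library sizes. Its terms were the 6 groups and, at each age, sex (0.5 male, -0.5 female). Residual degrees of freedom were 9, prior ones 3.71 at the median, and the common dispersion was 0.0411. Adjustment followed Benjamini and Hochberg over all genes. A standard error is the size of the log2 fold change divided by the root of F. Groups refer to different mice, and p-values set a difference between groups against the spread between libraries. The 3 libraries with transcripts of both sexes entered under their labelled sex. Alternatives were DESeq2 1.42.0, limma-voom 3.58.1, other scalings, filters, sex terms and sets of libraries. The scripts were tested on simulated data. Lists matched 401 of 406 entries, and each summed level covers all matched genes while calls cover tested ones. The 10 genes and the lists were chosen with earlier results of these data known. All 10 genes are named throughout, up to 4 genes of each list by smallest p, and the 8 genes most correlated with the mean z-score of the 10; the sex comparison was added later.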

Additional observations from a re-analysis of the deposited data

How the results depend on the processing

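The results are counts of the 10 genes past an adjusted p of 0.05. The share of all genes that passed in each setting is not given here. The counts therefore compare settings, and do not compare the 10 genes with other genes. RLE size factors, TMM without the Mup genes, limma-voom, a sex term in adults only and a fit to the ages compared moved no count by more than 1.5 times. Keeping every gene with a count gave 1 gene at 8 weeks (Psmb8) in place of 0 and 2 in the mean effect (Psmb8, Psmb10) in place of 1, and DESeq2 gave 3 and 4. Without a sex term 3 genes passed at 8 against 2 weeks and 3 at 16 against 2 weeks, in place of 5 each. Counts are not given without the 2 libraries with squamous transcripts, which left 1 asparaginase library at 8 weeks. They are not given either without the 3 libraries with transcripts of both sexes, which left 1 PBS library at 2 weeks. Total counts gave 10 genes between the sexes in place of 6, on a scale that also lowered the median of all genes in males. The cause of these shifts was not tested. Leaving out 1 library at a time gave 0 to 2 genes in the mean effect, 1 to 5 at 8 against 2 weeks, 1 to 7 at 16 against 2 weeks and 0 to 6 between the sexes, and 0 in all other comparisons.

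With total counts 8 of the 10 genes lay below 0 at 8 against 2 weeks and 9 of the 10 at 16 against 2 weeks, in place of 0. Among the genes called with TMM the sign turned for H2-D1 (-0.18), Tap1 (-0.15) and Tap2 (-0.35) at 8 against 2 weeks and for H2-D1 (-0.23), B2m (-0.0696), Tap2 (-0.38) and Nlrc5 (-0.08) at 16 against 2 weeks; the median of all genes moved to -0.72 and -0.80, so that the values are relative to a common fall. No paired analysis was possible because replicate numbers here are only the order in which samples were listed and link no mice across groups. With 3 libraries a group, changes of the size seen at single ages mostly stayed under the threshold, and the counts of the lower members (182 at the least) leave the spread between mice as the larger error.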
